A study of Mus musculus and Homo sapiens with 12 samples.

Results

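The nuclear genes for the subunits of oxidative phosphorylation (OXPHOS) were examined for butyryl-lysine (Kbu) and acetyl-lysine (Kac) histone marks. Members were the nuclear protein-coding genes whose symbol begins with NDUFA, NDUFB, NDUFC, NDUFS or NDUFV and a digit, is SDHA to SDHD, or begins with UQCR, COX4 to COX8 or ATP5. This gave 89 of 20033 human genes and 87 of 21883 mouse genes, with 84 ortholog pairs between them. The human set holds the read-through genes ATP5MF-PTCD1 and NDUFC2-KCTD14, which share their starts with ATP5MF and NDUFC2, and the near-identical copies UQCRHL and ATP5MGL, whose reads the alignment could have split. By symbol the human set also holds ATP5IF1, which encodes an inhibitor of ATP synthase and not a subunit.

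CUT&Tag, in which an antibody brings a transposase to the chromatin that carries a mark, was analysed in 12 libraries with 2 replicates for each mark. CCD841 cells, a line from normal human colon epithelium, were treated with 1 mM sodium butyrate (NaBu) for 12 to 16 h and profiled for H3K18bu and H4K12bu, with no untreated library analysed here. Large intestine of male CETP-ApoB-100 transgenic mice, which carry human lipoprotein genes, was profiled for H3K18bu and H4K12bu on a high fat, high sucrose diet with 5% arabinoxylan, a fermentable fiber fed in the later weeks of the diet, and for H3K18ac and H4K12ac on the high fat, high sucrose diet as labelled without the fiber. The study's methods describe the fiber for the whole group on that diet, so the diet of the acetyl libraries rests on the labels alone. By those labels acyl group and diet changed together in mouse and cannot be told apart. Tissue of 2 mice was used per condition, and the labels do not say which libraries share a mouse, so p-values over libraries may be too small. Nothing says that the replicates of CCD841 cells were separate cultures, and their spread may be technical.

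OXPHOS joins electron transport in the inner mitochondrial membrane to the making of ATP. Complex I and complex II pass electrons from NADH and succinate to ubiquinone, complex III passes them to cytochrome c, complex IV to oxygen, and ATP synthase uses the proton gradient that results. Most subunits are encoded in the nucleus, and colonocytes are known to oxidize butyrate in their mitochondria as a main fuel. Butyrate is also a source of the butyryl groups that are placed on histones.

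The deposited data were lists of peaks, 1 list per library. Each peak has a -log10 p against the local background of its own library and, solved from it, a pileup, which is the number of reads stacked at its summit. A gene was counted for a mark when each replicate had a peak in its window, which was 1 kb to either side of the gene start in CCD841 cells and of either gene end in mouse. Depth differed widely between the sets. Member peaks had a median pileup of 14 and 10 in the H3K18bu and 14 and 7 in the H4K12bu libraries of CCD841 cells, of 2 to 4 in the mouse Kac libraries, and of 1, 1, 1 and 2 in the mouse Kbu libraries. A pileup of 1 is a single read, and its presence or absence in 1 library is within counting error.

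Sequence is shown for 5 members that were among the 4 strongest for a mark, where strength is the lower -log10 p of the replicates. In CCD841 cells these were SDHB, the iron-sulfur subunit of complex II, NDUFA11, an accessory subunit of complex I, and ATP5PO, the stalk subunit of ATP synthase known as OSCP. In mouse they were Atp5e, the epsilon subunit of ATP synthase, and Ndufs6, a zinc-binding subunit of complex I. All 5 genes lie on the minus strand. For SDHB the 300 bases before the gene start are given (GRCh38, chr1:17054033-17054332). For NDUFA11 the 151 bases around the strongest H3K18bu summit are given (GRCh38, chr19:5904371-5904521), and for ATP5PO the 150 bases before the start (GRCh38, chr21:33915815-33915964). For Atp5e (chr2:174464102-174464301) and Ndufs6 (chr13:73328483-73328682) the 200 bases before the start come from RefSeq on GRCm38.p6. Capitals mark the letters GCATGCGC (NRF1), CCGGAAG (ETS family), AAGATGGC (YY1), AAGGTCA (ERRA), CCAAT (NFY) and GGGCGG (SP) on either strand.
SDHB: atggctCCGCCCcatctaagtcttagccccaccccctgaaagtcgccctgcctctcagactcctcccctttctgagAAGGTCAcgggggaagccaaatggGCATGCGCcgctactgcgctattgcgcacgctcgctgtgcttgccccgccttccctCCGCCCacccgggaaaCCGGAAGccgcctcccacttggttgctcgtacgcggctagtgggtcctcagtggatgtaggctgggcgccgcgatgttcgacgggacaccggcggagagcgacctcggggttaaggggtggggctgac
NDUFA11: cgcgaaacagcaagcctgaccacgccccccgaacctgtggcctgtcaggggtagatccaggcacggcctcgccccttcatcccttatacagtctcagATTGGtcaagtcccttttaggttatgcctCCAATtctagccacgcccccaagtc
ATP5PO: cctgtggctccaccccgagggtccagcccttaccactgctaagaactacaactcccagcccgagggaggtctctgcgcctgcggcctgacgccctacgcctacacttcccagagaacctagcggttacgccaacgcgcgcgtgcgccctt
Atp5e: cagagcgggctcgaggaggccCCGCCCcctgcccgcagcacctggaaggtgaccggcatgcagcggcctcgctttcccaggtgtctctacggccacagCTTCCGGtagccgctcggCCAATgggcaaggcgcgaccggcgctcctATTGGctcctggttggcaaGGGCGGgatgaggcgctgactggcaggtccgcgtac
Ndufs6: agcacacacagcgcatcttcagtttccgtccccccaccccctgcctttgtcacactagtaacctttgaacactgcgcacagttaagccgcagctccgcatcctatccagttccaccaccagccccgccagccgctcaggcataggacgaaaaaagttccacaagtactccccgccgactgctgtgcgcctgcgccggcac
The SDHB stretch held the ERRA, NRF1 and ETS letters and the SP letters at 2 places, and the NDUFA11 stretch held the NFY letters at 2 places. The Atp5e stretch held the ETS letters and the NFY and SP letters at 2 places each. ATP5PO and Ndufs6 held none of these letters in the bases shown.

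Over the 300 bases from 250 before to 50 after each start, the NRF1 letters were in 13 of 89 human members (14.6%) and 4.27% of all human coding genes. For human promoters the start was that of the canonical transcript, which can differ from the gene start used for peaks. In mouse they were in 13.3% of 75 member promoters, from 70 genes with an entry in the table, and in 3.51% of all promoters. The YY1 letters were in 16.9% of human and 13.3% of mouse member promoters, against 4.04% and 3.05% of all promoters. For the ERRA letters the shares were 14.6% and 10.7% against 2.89% and 4.08%, and for the ETS letters 27.0% and 22.7% against 14.1% and 11.6%. The longer forms searched were in 4.49% of human and 6.67% of mouse member promoters for NRF1, against 1.69% and 1.33% of all promoters, and in 2.25% and 2.67% for ERRA (TCAAGGTCA), against 0.185% and 0.334%. The NFY letters, in 32.6% and 41.3% of member promoters, and the SP letters, in 60.7% and 38.7%, were close to or below their shares in all promoters, which were 36.1% and 38.2% for NFY and 61.3% and 46.2% for SP. Among human members with H4K12bu in both replicates and those without it, the NRF1 letters were in 13.8% of 29 and 15.0% of 60 promoters, the NFY letters in 41.4% and 28.3% and the SP letters in 44.8% and 68.3%. Among mouse promoters the split was 15.9% of 44 and 9.68% of 31 for NRF1, 38.6% and 45.2% for NFY and 43.2% and 32.3% for SP. The ERRA letters were in 10.3% and 16.7% in human and 13.6% and 6.45% in mouse. The direction of these 4 splits turned between the species. The YY1 letters were in 17.2% and 16.7% in human and 18.2% and 6.45% in mouse, and the ETS letters in 20.7% and 30.0% and then 22.7% and 22.6%. No split was tested. A match of letters is a description and not a binding site.

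In CCD841 cells H4K12bu lay at a larger share of OXPHOS genes than of other coding genes, and H3K18bu did not. H4K12bu had a peak in both replicates at 29 of 89 members, or 32.6% (exact 95% binomial interval 23.0 to 43.3%), beside 16.2% of the other coding genes. H3K18bu had one at 27 of 89 members, or 30.3% (21.0 to 41.0%), beside 32.7% of the others. The intervals cover counting over genes only, and no test was made of a list whose members were chosen with results known. For H4K12bu the members were above the others in each replicate alone, by 13.9 and 22.2 percentage points, so the direction did not depend on 1 library. With the same number of strongest peaks in each list the difference was 3.76 points.

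The H3K18bu replicates differed at these genes. Replicate 1 had a peak at 28 members, or 31.5% beside 40.3% of the others, and replicate 2 at 53 members, or 59.6% beside 45.5%, so the direction turned with the replicate. Of the 26 members with a peak in replicate 2 alone, 8 had a -log10 p below 5.31, the lowest value in the list of replicate 1. The other 18 were at or above it, with the highest value, 15.4, at COX5A, a nuclear-encoded subunit of complex IV. Peaks in the 2 replicates overlapped at 27 of 27 members for H3K18bu (100%, beside 94.6% of the other genes with the mark) and at 27 of 29 for H4K12bu (93.1%, beside 88.3%).

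**Figure D1:**
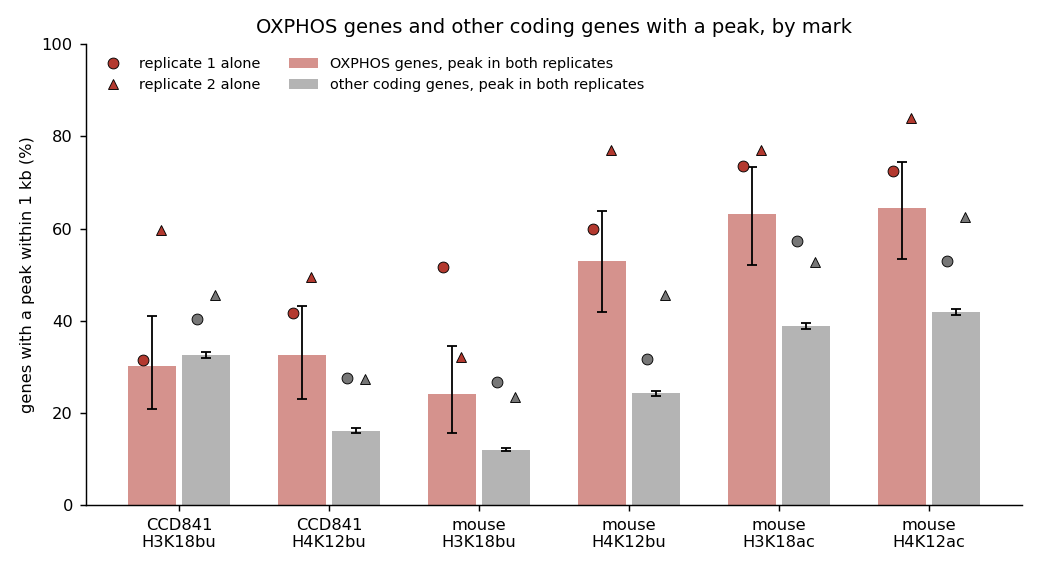
Share of genes with a peak within 1 kb, by mark, for OXPHOS genes (red) and other coding genes (grey). Bars are genes with a peak in both replicates with exact 95% binomial intervals, and points are single replicates. OXPHOS genes lie above other genes in both replicates for every mark except CCD841 H3K18bu, where replicate 1 is below (31.5% against 40.3%) and replicate 2 above (59.6% against 45.5%).

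Both marks had peaks in every CCD841 library at 18 members (20.2%, beside 12.2% of other coding genes), and 24 members had no peak in any (27.0%, beside 38.9%). H3K18bu alone was in both replicates at 9 members (10.1%, others 20.4%) and H4K12bu alone at 11 (12.4%, others 4.00%). Among the 38 members with either mark in both replicates, 15 ranked higher within their list for H4K12bu than for H3K18bu in every replicate (39.5%, beside 19.2% of the other genes with either mark). In the opposite direction there were 11 (28.9%, beside 40.0%). Of the 15, 8 had H4K12bu alone in both replicates, and of the 11, 5 had H3K18bu alone, so for these the direction was built in and the counts are a description. With 2 libraries against 2 the smallest exact permutation p is 0.333, so no test was made. Among the members with both marks, ATP5F1B, the catalytic beta subunit of ATP synthase, ranked higher for H4K12bu, as did SDHB, NDUFB4, NDUFA2, ATP5F1C, COX8C and NDUFA6. Members with both marks that ranked higher for H3K18bu were NDUFA4, NDUFA11, NDUFV2, ATP5PO, UQCRQ and UQCRB.

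Complex I had 39 human members, 7 of its conserved catalytic core and 32 accessory subunits. H3K18bu was in both replicates at 2 of the 7 core and 10 of the 32 accessory genes, and H4K12bu at the same counts, 2 and 10. These were 28.6% of core and 31.2% of accessory genes. Other coding genes had H3K18bu at 32.7%, near these shares, and H4K12bu at 16.2%, below them. The 2 core genes were NDUFS3 and NDUFV2 for either mark. NDUFA11 carried the strongest H3K18bu peak of all members, with -log10 p of 42.2 and 37.3, pileups of 51 and 44, and place 21 of the 6543 coding genes with the mark in both replicates. Its H4K12bu peaks had -log10 p of 14.7 and 7.34. The gene lies at chr19:5891276-5904006, and the H3K18bu summits lay at -440 and -446 bp from its start, at the printed bases. The window of NDUFA11 also holds the start of VMAC, 866 bp away on the opposite strand, and of 2 further annotated genes, so a peak there cannot be assigned to NDUFA11 alone.

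NDUFA4, a small subunit first described in complex I and since placed in complex IV, had H3K18bu -log10 p of 22.8 and 17.3 and H4K12bu -log10 p of 11 and 5.74 (chr7:10931943-10940153). NDUFA2 had H3K18bu values of 18.4 and 11.8 and H4K12bu values of 13.7 and 7.11. Both genes were marked in all 4 libraries, with the lowest value in H4K12bu replicate 2, the list with the lowest pileups. NDUFB2 had an H4K12bu -log10 p of 13.1 in replicate 1 and no listed peak in the other 3 libraries. That peak only reached into the window, with its summit at -1007 bp from the start. NDUFB2 was the strongest of the 8 members with H4K12bu in replicate 1 alone. For 9 complex I members no library had a peak within the window, excluding the read-through gene: NDUFA1, NDUFA4L2, NDUFA7, NDUFA13, NDUFB8, NDUFC1, NDUFC2, NDUFS6 and NDUFS7.

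Complex II, the succinate dehydrogenase that also serves the citric acid cycle, was marked at SDHB only when both replicates were required. SDHB had H3K18bu -log10 p of 19.6 and 18.6 and H4K12bu values of 15.4 and 7.10, with summits at -286 to -280 bp from the start (gene at chr1:17018664-17054032), inside the printed bases. SDHA, the flavoprotein subunit, was marked in 1 library, H3K18bu replicate 2 (7.5). SDHD, a membrane anchor, was marked in H4K12bu replicate 1 alone (6.01 for its strongest peak), and SDHC, the other anchor, in no library. The 4 subunits of 1 complex were therefore not marked alike in these lists.

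In complex III, 4 of 9 genes had H3K18bu and 4 of 9 H4K12bu in both replicates. This was 44.4% for each mark, beside 32.7% of other coding genes for H3K18bu and 16.2% for H4K12bu. UQCRQ had H3K18bu values of 19.2 and 13.7 and H4K12bu values of 8.59 and 4.98. UQCRC2, a core protein, had 11.5 and 8.54 for H3K18bu and 10.1 and 4.02 for H4K12bu, and UQCRB, a subunit near the quinone site, 12.6 and 11.8 and then 5.28 and 4.58. All 3 were marked in each of the 4 libraries. UQCRC1, the partner core protein of UQCRC2, had no peak.

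In complex IV, 3 of 17 genes had H3K18bu in both replicates (17.6%, beside 32.7% of other coding genes). H4K12bu was at 2 of 17 (11.8%, beside 16.2%). The H3K18bu count rested on replicate 1, with 3 genes (17.6%, others 40.3%), while replicate 2 had 10 (58.8%, others 45.5%). H4K12bu was at 4 genes in each replicate alone (23.5%, others 27.7 and 27.3%). COX8C, an isoform known from testis, was marked in all 4 libraries, at 10.3 and 8.05 for H3K18bu and 7.96 and 9.05 for H4K12bu. Its lower H4K12bu value was the highest of any member, at place 199 of 3269 coding genes with that mark in both replicates. COX5A had H4K12bu at 12.0 and 5.74 and H3K18bu in replicate 2 only. Of the other tissue-restricted isoforms, COX6A2, COX6B2, COX7A1, COX7B2 and NDUFA4L2 had a peak in no library, and COX4I2 in 1, H3K18bu replicate 2. Of their widely expressed counterparts NDUFA4 had a peak in 4 libraries, COX6B1 in 3, COX7B in 2, COX4I1, COX6A1 and COX8A in 1 each, and COX7A2 in none.

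For ATP synthase, H4K12bu was at 10 of 20 genes (50.0%, 27.2 to 72.8%, beside 16.2% of other coding genes), with 11 in each replicate alone. H3K18bu was at 7 of 20 (35.0%), near the 32.7% of other coding genes. The 10 include ATP5MF and ATP5MF-PTCD1, which were counted from the same peak, and ATP5IF1, the inhibitor that is not a subunit. ATP5PO (chr21:33903453-33915814) had H3K18bu -log10 p of 29.9 and 24.9, place 113 of 6543, and H4K12bu values of 17.5 and 4.73. ATP5PF, a stalk subunit, had 18.4 and 6.51 for H3K18bu and 14.6 and 4.65 for H4K12bu, with summits 635 to 666 bp downstream of the annotated start. ATP5F1C, the gamma subunit, had 9.44 and 5.55 and then 11.5 and 4.86. ATP5PB, a further stalk subunit, had 13.7 and 13.0 for H3K18bu and H4K12bu in replicate 1 alone (5.73). The exact intervals of the shares overlapped for every pair of complexes within each CCD841 mark, and no difference between complexes was tested.

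**Figure D2:**
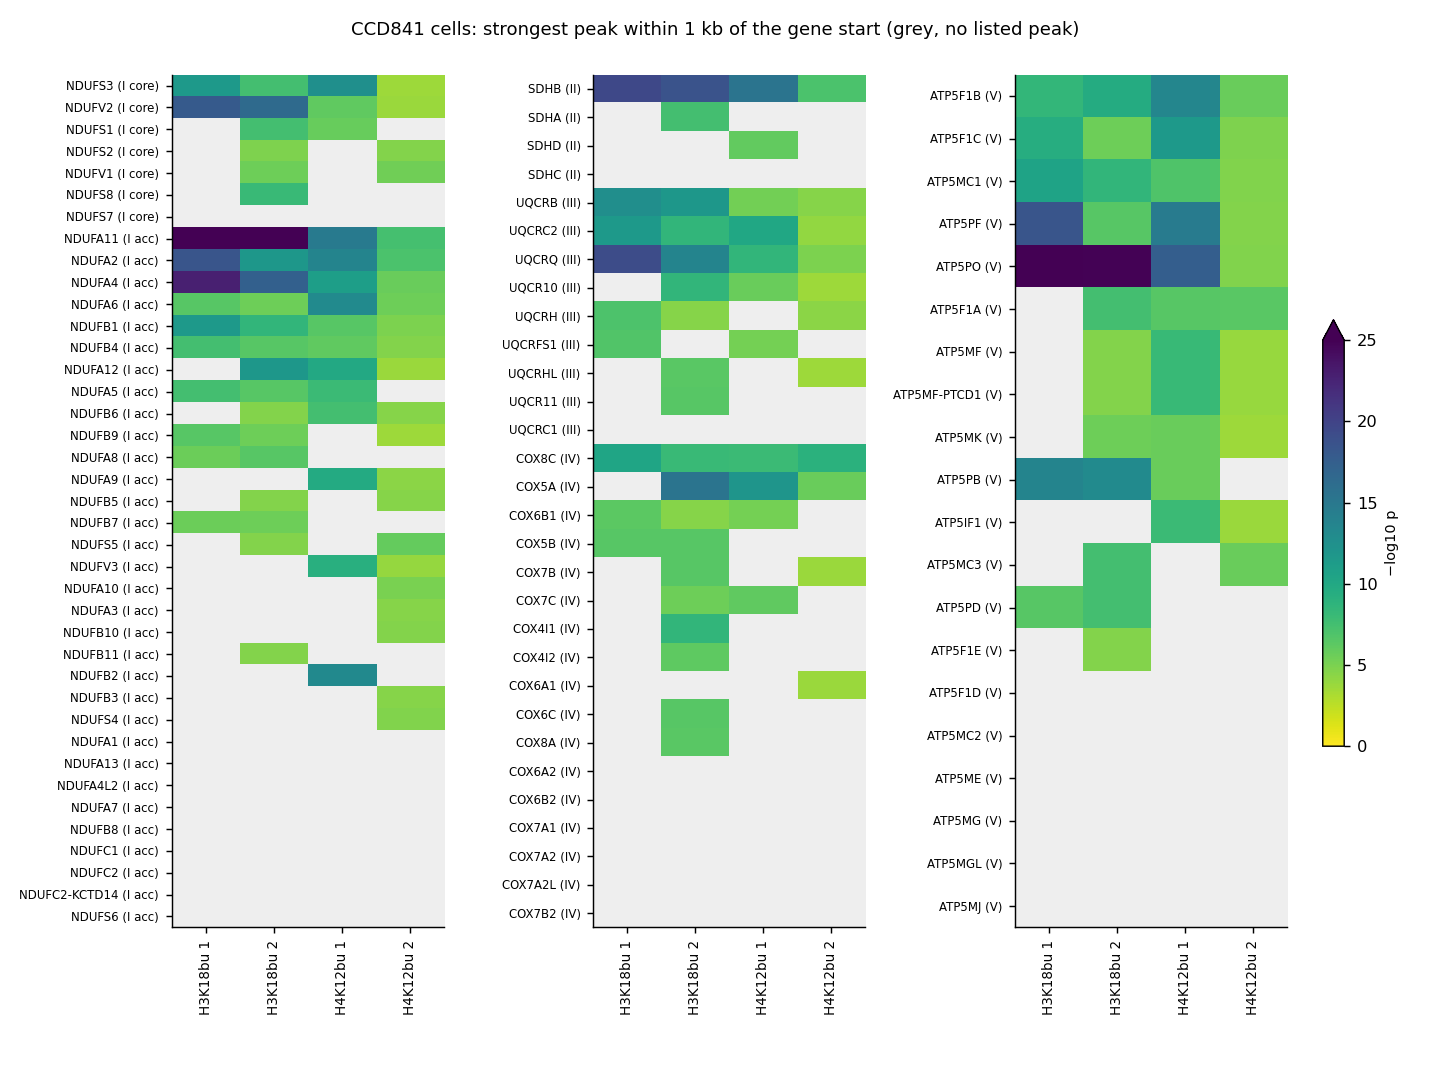
Strongest peak within 1 kb of the gene start for the 89 OXPHOS genes in the 4 CCD841 libraries, as -log10 p (color scale stops at 25, and grey is no listed peak). NDUFA11 and ATP5PO reach 42.2 and 29.9 in H3K18bu replicate 1, and 24 genes are grey in every library.

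Peaks lay close to the start. In the 4 CCD841 libraries the strongest peak had its summit within 250 bp of the start at 77.3 to 85.7% of members with a peak, beside 49 to 59.5% of the other genes with one. The median distance was between -30 and -4 bp in members and between -27 and -13 bp in the others. Members are shorter genes, with a median length of 12.1 kb in human and 7.13 kb in mouse beside 27.6 and 17.2 kb, and 42.7% of them in human and 56.3% in mouse have the window of another coding gene centred within 1 kb of their own, beside 17.2% and 24.7%. The part of gene length in the shares was not tested. With shared windows left out, a setting chosen after seeing the data, the H4K12bu difference in CCD841 cells was 16.7 percentage points and the difference for H3K18bu was 3.10 points.

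**Figure D3:**
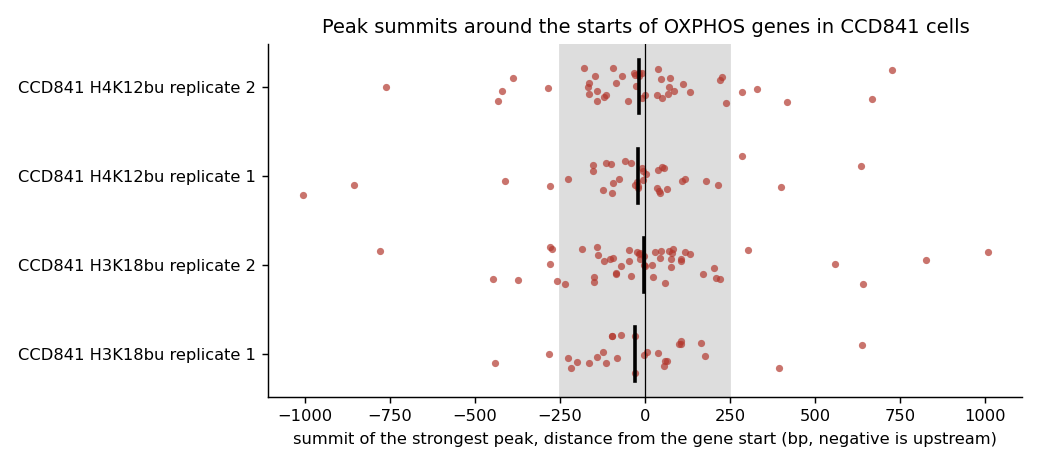
Distance from the gene start to the summit of the strongest peak for each OXPHOS gene with a peak in a CCD841 library (bp, negative upstream), with medians as black bars and the 250 bp on either side shaded. Between 77.3 and 85.7% of the summits of a library fall in the shaded band.

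The cell type label was checked at marker genes. In CCD841 cells the epithelial genes EPCAM, CDH1, CDX1, CDX2, KRT19 and KRT20 had no peak of either mark in any library. VIL1 had H3K18bu in both replicates, and KRT8 and KRT18 had H4K12bu. The mesenchymal genes COL1A2 and ACTA2 had both marks in both replicates and FAP had H3K18bu. H3K18bu was in both replicates at 1 of 10 epithelial, 2 of 8 fibroblast and 1 of 4 smooth muscle genes, beside 32.7% of coding genes outside the rule. H4K12bu was at 2, 1 and 1 of these, beside 16.2%. DES and MYH11 had no peak of either mark, and COL3A1, PDGFRA and COL1A1 none of H4K12bu. Over 10 epithelial genes the H3K18bu pileups summed to 19 and 52 in the replicates and the H4K12bu pileups to 26 in each. Over 8 fibroblast genes the sums were 52 and 46 and then 19 and 8, with FAP and COL1A2 as the highest fibroblast genes and PDGFRB, VIM and THY1 without a peak. Most epithelial markers thus lacked a Kbu peak in cells labelled epithelial. Of other coding genes, 38.9% also had no peak in any CCD841 library, so 10 genes do not settle the cell type. Some mesenchymal markers had a Kbu peak, but most were not marked in both replicates. In mouse, H3K18bu was in both replicates at 8 of 10 epithelial genes and at none of 8 fibroblast, 4 smooth muscle and 5 immune genes, and H4K12bu at 6 of the 10 and none of those others. The nerve and glia gene S100b had H3K18bu in both replicates. H3K18ac and H4K12ac were at 7 and 5 of the 10 epithelial, 3 and 0 of the fibroblast, 1 and 2 of the smooth muscle and 2 and 0 of the immune genes. They were also at 1 of 4 nerve and glia genes each, and at 0 and 2 of 3 muscle or heart genes. Mouse coding genes outside the rule had H3K18bu at 12.1%, H4K12bu at 24.3%, H3K18ac at 38.8% and H4K12ac at 41.9%. The H4K12ac count at epithelial genes was thus near the general share. Counts of 0 in sets this small do not set those genes apart. Peaks are not expression, and whether the makeup of cells has a part in the marks at OXPHOS genes was not tested.

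In mouse intestine each mark lay at a larger share of OXPHOS genes than of other coding genes. H4K12bu was in both replicates at 46 of 87 members, or 52.9% (41.9 to 63.7%), beside 24.3%, and H3K18bu at 21 of 87, or 24.1% (15.6 to 34.5%), beside 12.1%. The acetyl marks lay at 55 (63.2%, beside 38.8%) for H3K18ac and 56 (64.4%, beside 41.9%) for H4K12ac. In each of the 8 libraries taken alone the share of members was above that of the others, by 8.64 to 31.4 percentage points. The H3K18bu difference ranged from 8.64 points in replicate 2 to 25.1 in replicate 1. A peak in every mouse library was found at 11 members (12.6%, beside 4.43%), among them Atp5e, Ndufa4, Ndufs6, Uqcrb, Uqcrc2 and Uqcrq. Only Ndufb4b and Ndufb4c, copies of Ndufb4, had none (2.3%, beside 14.1%).

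The Kbu counts rested mostly on single reads. Of the 21 members with H3K18bu in both replicates, 18 had a pileup of 1 in at least 1 replicate, and peaks of the replicates overlapped at 8 (38.1%, beside 55.0% of the other genes). Of the 46 with H4K12bu, 31 had such a peak and 36 overlapped (78.3%, beside 66.0%). Where each replicate had to reach a pileup of 2, there were 3 members for H3K18bu (3.45%, beside 1.18%), namely Atp5e, Atp5d and Ndufs6, and 15 for H4K12bu (17.2%, beside 4.60%). With q below 0.05 in both replicates there were 0 members for H3K18bu (beside 0.101%) and 4 for H4K12bu (4.60%, beside 0.991%), namely Ndufa5, Ndufs6, Uqcrb and Uqcrc2. For H4K12bu the members stayed above the other genes under each of these thresholds. For H3K18bu only 22 of the other genes passed q below 0.05, too few to read a direction from 0 members.

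**Figure D4:**
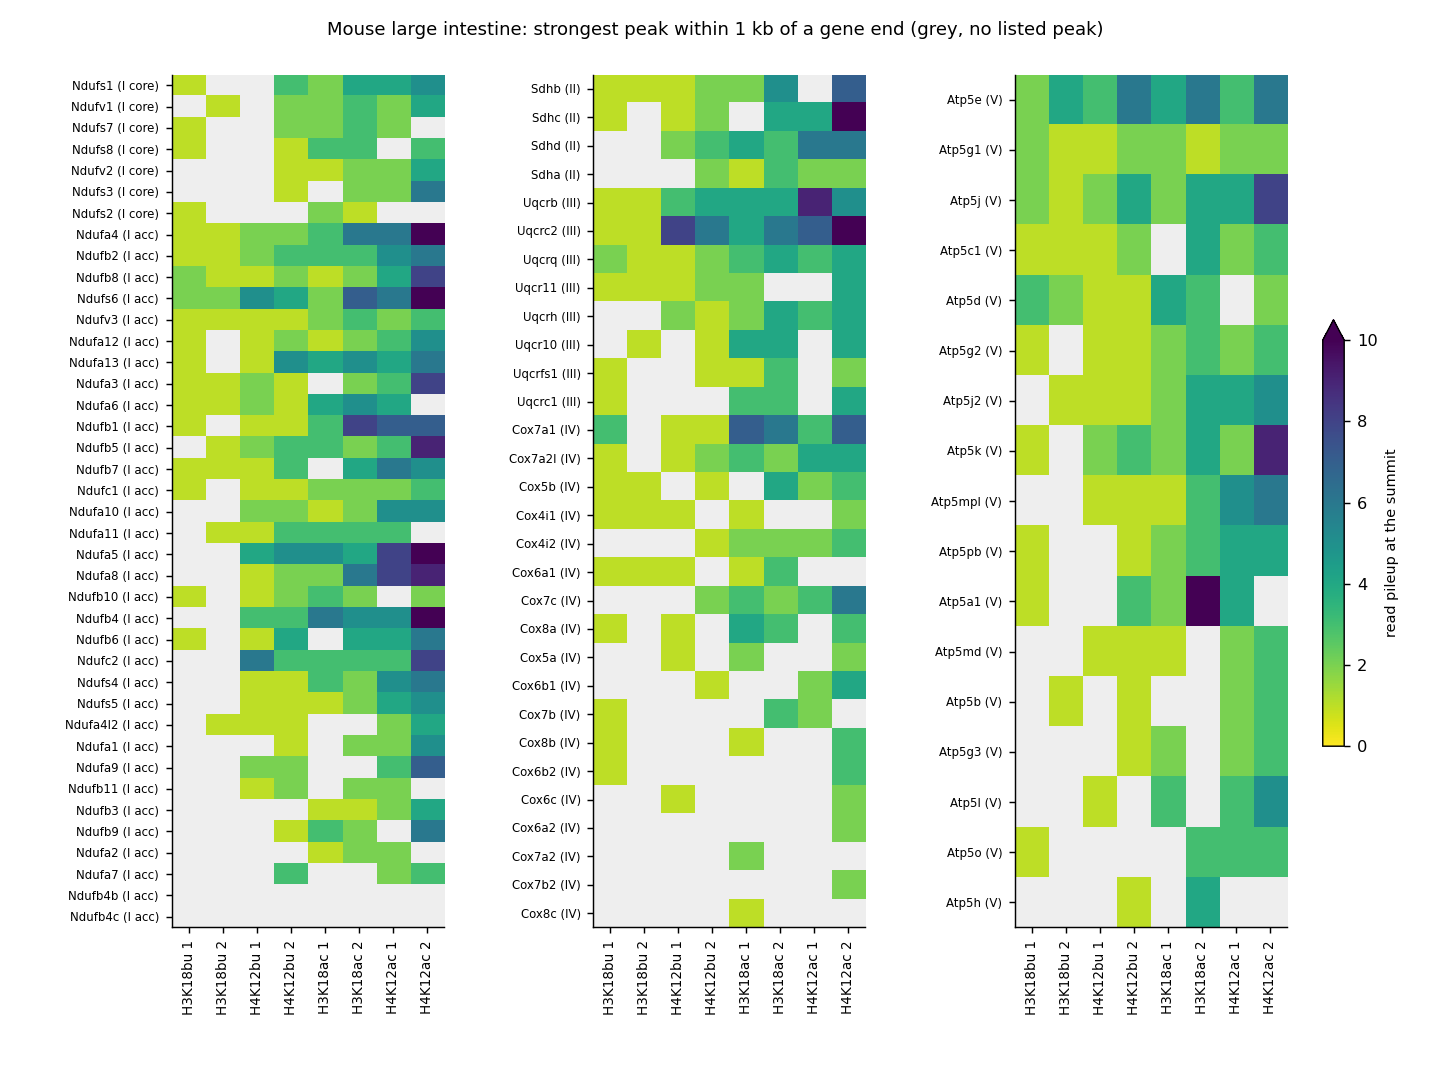
Strongest peak within 1 kb of either gene end for the 87 OXPHOS genes in the 8 mouse libraries, as read pileup at the summit (color scale stops at 10, and grey is no listed peak). Most H3K18bu squares that are not grey show a pileup of 1, and Uqcrc2 reaches 8 in H4K12bu replicate 1.

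Where strand was known, more members had a mark at the 5' end than at the 3' end. Of 70 members with strand, H4K12bu was in both replicates at the 5' end of 34 and at the 3' end of 4. H3K18bu was at 13 and 2, H3K18ac at 41 and 4, and H4K12ac at 43 and 6. H4K12bu was at the 5' end of 48.6% and the 3' end of 5.71% of these members, beside 20.9% and 3.09% of the other genes, and H3K18bu at 18.6% and 2.86%, beside 9.77% and 1.42%. The excess of the 5' end was general: H3K18ac was at the 5' end of 31.0% and the 3' end of 7.49% of the other genes, beside 58.6% and 5.71% of members, and H4K12ac at 34.2% and 8.73%, beside 61.4% and 8.57%.

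In mouse, accessory subunits of complex I carried H4K12bu at 26 of 33 genes (78.8%, 61.1 to 91.0%, beside 24.3% of coding genes outside the rule), with 26 in replicate 1 and 29 in replicate 2. With a pileup of 2 required in each replicate the count was 9. By symbol the 26 include Ndufa4, which is placed in complex IV today, and its isoform Ndufa4l2. Ndufa5, a matrix-arm subunit, had H4K12bu -log10 p of 7.40 and 8.50, H3K18ac of 7.93 and 6.42 and H4K12ac of 9.08 and 16.8, with no H3K18bu peak. Ndufs6 had H4K12bu values of 8.19 and 5.76 and H3K18bu values of 3.98 and 3.98. Ndufc2 had H4K12bu values of 11.1 and 5.38 and no H3K18bu peak. Ndufb4 likewise had H4K12bu only, at 6.83 and 5.38, beside H3K18ac of 8.83 and 7.07, the strongest H3K18ac of any member by its lower value. Ndufa8, an intermembrane-space subunit, had the strongest H4K12ac by its lower value, at 9.35 and 10.5, with H4K12bu of 3.98 and 4.21. Ndufa5, Ndufc2, Ndufb4 and Ndufa8 thus carried H4K12bu with no H3K18bu peak in either replicate.

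The 7 core genes of complex I carried H4K12bu in both replicates at 0 genes (exact 95% upper bound 41.0%). This followed from 1 library: replicate 1 had a peak at 0 of the 7 and replicate 2 at 6. In replicate 2 the pileups were 3 at Ndufs1, 2 at Ndufs7 and Ndufv1 and 1 at Ndufs3, Ndufs8 and Ndufv2. H3K18bu was also in both replicates at 0 core genes, with 4 in replicate 1 and 1 in replicate 2. The acetyl marks were at 6 (H3K18ac, 85.7%) and 4 (H4K12ac, 57.1%) of the 7. Other coding genes had H3K18ac at 38.8% and H4K12ac at 41.9%, and H4K12bu at 24.3% and H3K18bu at 12.1%. The difference between core and accessory genes was not tested, and at pileups of 1 to 3 a missing peak does not show that a gene was unmarked.

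For complex II, H4K12bu was in both replicates at Sdhb, Sdhc and Sdhd and H3K18bu at Sdhb. Sdhb had H3K18bu values of 3.98 and 3.98 and H4K12bu values of 3.38 and 4.67. Both H3K18bu summits and that of H4K12bu replicate 1 lay near the 3' end of Sdhb, and that of H4K12bu replicate 2 at its 5' end. Sdhd had the strongest H4K12bu of the 4, at 4.87 and 6.33, and its window is shared with Timm8b, 52 bp away. Sdha had 1 Kbu peak, in H4K12bu replicate 2 (4.87), and Sdhc had H4K12ac of 5.32 and 15.6.

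For complex III, H4K12bu was at 5 of 8 genes (62.5%, beside 24.3% of other coding genes) and H3K18bu at 4 (50.0%, beside 12.1%). Uqcrc2 had the strongest H4K12bu of all members, with -log10 p of 12.8 and 9.92, pileups of 8 and 6, and place 10 of 5334 coding genes with the mark in both replicates. Its H4K12ac values were 7.99 and 13.3, its H3K18ac values 6.53 and 8.21, and its H3K18bu peaks were single reads at 3.98 and 3.98. The gene lies at chr7:120635189-120659523 on GRCm38, and an end of Pdzd9 lies 620 bp from one of its ends. Uqcrb had H4K12bu values of 6.83 and 7.79, place 114, and also had the other 3 marks in both replicates.

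For complex IV, H4K12bu was at 2 of 18 genes (11.1%, 1.38 to 34.7%), an interval that holds the 24.3% of other coding genes. H3K18bu was at 3 (16.7%, beside 12.1%). Single replicates had 7 and 6 for H4K12bu, 38.9 and 33.3%, beside 31.7 and 45.6% of other coding genes. Cox5b had H3K18bu at 3.98 and 3.98, both single reads at opposite ends of the gene. Cox7a1, an isoform known from heart and skeletal muscle, had the second strongest H3K18ac of any member by its lower value, at 9.97 and 6.90. These summits lay near the 5' end in replicate 1 and past the 3' end in replicate 2. Cox7a1 also had a H3K18bu peak of 6.83 in replicate 1 alone, and a neighbour, Capns1, 904 bp away. Cox7a2, its widely expressed counterpart, had a peak in 1 of 8 libraries. Over the 8 restricted isoforms, peaks were found in 25 of 64 gene and library pairs, beside 30 of 56 for the 7 widely expressed ones.

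For ATP synthase, H4K12bu was at 10 of 17 genes (58.8%, beside 24.3% of other coding genes) and H3K18bu at 5 (29.4%, beside 12.1%). Atp5e had the strongest H3K18bu of all members by its lower value, at 5.39 and 8.27 with pileups of 2 and 4, place 39 of 2655. Its H4K12bu values were 5.38 and 9.06, its H3K18ac values 6.31 and 8.40 and its H4K12ac values 3.84 and 6.63, so it was marked in all 8 libraries. Atp5d, the delta subunit, had H3K18bu of 5.64 and 4.21, with both summits past its 3' end, and Midn lies 177 bp away. Atp5j, the ortholog of ATP5PF, had H4K12bu of 4.21 and 6.78, and an end of Gabpa lies 966 bp from one of its ends, so a peak there can count for both genes.

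**Figure D5:**
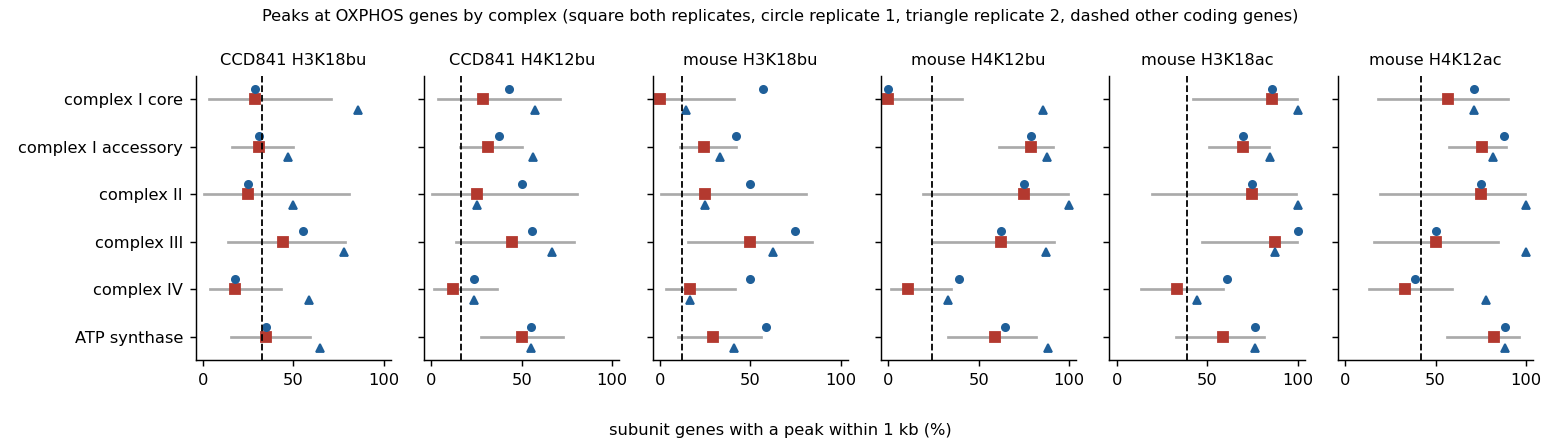
Share of subunit genes with a peak within 1 kb for each complex and mark, with both replicates as a square and its exact 95% binomial interval, replicate 1 as a circle and replicate 2 as a triangle. The dashed line is the share of other coding genes with a peak in both replicates. In mouse H4K12bu the accessory subunits of complex I stand at 78.8% and the core at 0 in both replicates, with replicate 2 alone at 85.7% of the core.

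Every member with a Kbu mark in both mouse replicates also had a Kac peak of the same residue in at least 1 replicate. Members without one were 0 of 21 for H3K18 (exact 95% upper bound 16.1%, other genes 4.82%) and 0 of 46 for H4K12 (upper bound 7.71%, others 4.52%). Kac was in both replicates at 15 of the 21 (71.4%, beside 72.0% of the other genes with the mark) and 39 of the 46 (84.8%, beside 71.6%). The H3K18 share of members was thus near that of the other genes. Kbu and Kac were then compared by the percentile rank of each gene within its library, with a two-sided exact permutation test over 70 assignments of the 8 libraries. No gene passed an adjusted p of 0.05 among the 13057 tested (0 called, 0%), which would have needed most of them to reach the smallest p, and the smallest Benjamini-Hochberg adjusted p was 0.433. At the smallest p the design allows, an exact 0.0286 before adjustment, were 862 genes and 4 of the 75 members tested.

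Uqcr11 and Atp5g1 ranked higher for Kbu in every library than for Kac in any (2.67% of members, beside 1.68% of all genes tested). Their Kbu pileups were 1 or 2, and in the shorter Kbu lists a single read already gave a high rank. Uqcr11, a small subunit of complex III, had mean percentile ranks of 85.3 for Kbu and 44.8 for Kac, and Atp5g1, which encodes the membrane ring subunit c, 86.9 and 56.7. Ndufb1 and Ndufb3, accessory subunits of complex I, ranked lower without overlap (2.67%, beside 4.92%), at 64.5 for Kbu against 95.7 for Kac and 34.0 against 61.3. Ndufb3 had no Kbu peak in any library. Genes entered the test with any 1 of the marks, and Uqcr11 did so through Kbu alone and Ndufb3 through Kac alone, so a difference was built in and these counts are a description. None of the 4 passed the adjustment, with exact permutation p adjusted to 0.433. Over the members the median difference in rank, Kbu minus Kac, was -3.68, and over all genes tested it was -6.59. The Kbu lists held 50675 to 96432 peaks and the Kac lists 299623 to 299861, and this length moved with acyl group.

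The mark at orthologs was compared over the 84 pairs, with a window at the gene start in CCD841 cells and at either gene end in mouse. H3K18bu was in both replicates in both species at 11 pairs, which is 52.4% of the mouse and 40.7% of the CCD841 genes with the mark. Over all pairs, the mouse gene had H3K18bu at 25% and the CCD841 gene at 32.1%. H4K12bu was in both species at 18 pairs, which is 39.1% and 66.7%, and over all pairs the mouse gene had it at 54.8% and the CCD841 gene at 32.1%. These overlaps were not tested or compared with those of other genes. H4K12bu was shared at UQCRC2, UQCRB, NDUFB4, NDUFA4, NDUFA9 and ATP5PF (mouse Atp5j), the 6 with the highest lower mouse values. NDUFA9, a complex I subunit, had CCD841 H4K12bu values of 9.72 and 4.37 and mouse values of 4.87 and 4.50, with no H3K18bu peak in either species. H3K18bu was shared at COX5B, ATP5F1C (mouse Atp5c1), SDHB, NDUFA4, UQCRC2 and NDUFB7, at mouse peaks of a single read, and 15 of the 21 mouse members tied at a lower -log10 p of 3.98, so their order is arbitrary. Only the gene start was searched in CCD841 cells here, so the place of the mark cannot be compared between species. In mouse the H3K18bu peaks of Sdhb lay near its 3' end. The replicates of Cox5b had H3K18bu at opposite ends of the gene, as did the peaks that stood for Atp5c1. Atp5c1 had 3 H3K18bu peaks in replicate 2, and the place of the others was not examined. NDUFS6 had no peak in CCD841 cells, although its mouse ortholog was marked in all 8 libraries.

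Other genes of the pathway were counted by the same windows. Assembly factors, which build the complexes, carried H4K12bu in both replicates at 11 of 49 genes in CCD841 cells (22.4%) and 31 of 48 in mouse (64.6%), and H3K18bu at 18 of 49 (36.7%) and 11 of 48 (22.9%). Coding genes outside the rule had H4K12bu at 16.2% and 24.3% and H3K18bu at 32.7% and 12.1%, so the H3K18bu share of assembly factors in CCD841 cells was near the general one. They included SCO1, a copper chaperone of complex IV, FOXRED1, a complex I factor, and COX18, an insertase, each with both Kbu marks in both species. Of 13 regulators of mitochondrial genes, 4 had H4K12bu and 7 H3K18bu in CCD841 cells, and 5 and 3 in mouse. GABPA, an ETS factor of respiratory genes, had both Kbu marks in both species, and in mouse its window overlaps that of Atp5j. PPARGC1A, the coactivator PGC-1 alpha, had none of the marks in both replicates in either species. Of the 6 electron carriers and related genes outside the rule, 5 had H4K12bu and 4 H3K18bu in mouse, with Cycs, which encodes cytochrome c, among both, and 1 and 2 in CCD841 cells.

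Mitochondrial ribosomal protein genes, set beside as another nuclear set for the same organelle, carried H4K12bu at 16 of 78 (20.5%) in CCD841 cells and 34 of 78 (43.6%) in mouse. Cytosolic ribosomal protein genes carried it at 13 of 88 (14.8%) and 38 of 89 (42.7%). The OXPHOS shares for H4K12bu, 32.6% and 52.9%, were above both in each species, with intervals that reach down to 23.0% and 41.9%. For H3K18bu in CCD841 cells the order was the opposite, with 43.2% of cytosolic and 37.2% of mitochondrial ribosomal protein genes beside 30.3% of OXPHOS genes. In mouse it was 8.99 and 10.3% beside 24.1%. Olfactory receptor genes, which are silent in most tissues, had H3K18bu at 7.23% and H4K12bu at 7.95% of 415 genes in CCD841 cells and at 0.18% and 0.631% of 1110 in mouse.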

How the data were processed

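The submitters' processing notes name bcl2fastq 2.17.1, cutadapt 1.9.1, Bowtie2 2.3.1 and MACS2 2.1.0 and the builds hg38 and mm10. The authors deposited 1 peak list per library, called at p 0.01 without a control, limited in length and filtered for artifact regions. The fold, a ratio over local background, and the -log10 p and q-value of each peak were deposited by the authors. The files hold no counts.

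Pileup and background were solved from fold and p. Windows of 1000 bp used GENCODE 44 starts on GRCh38 and, in mouse, both gene ends of RefSeq GRCm38.p6, since strand was known for part of the genes. The strongest peak by -log10 p stood for a gene. Shares carry exact (Clopper-Pearson) binomial intervals. Ranks were percentiles among all coding genes of a library, and genes entered the Kbu and Kac test with a peak in both replicates of at least 1 mark. Named members were the 4 with the highest lower -log10 p per mark, all SDH genes, the 6 highest shared with the ortholog per Kbu mark, members without a peak, and isoform pairs, and others were named after their values had been seen. The members and lists were chosen with earlier results of these data known. The solver, window search and permutation test were tested on simulated data. Alternatives were other windows, thresholds, list lengths and gene sets, left-out libraries and a replicate block, and canonical or RefSeq starts and the removal of shared windows were added after seeing the data. The software was scipy 1.17.1, pandas 2.3.3, numpy 2.4.6 and matplotlib 3.10.9 under Python 3.11.15.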

Additional observations from a re-analysis of the deposited data

How the results depend on the processing

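Values are percentage points by which the share of OXPHOS genes lay above that of other coding genes. For CCD841 H3K18bu, -2.33 turned to 7.47 with a peak in either replicate, 1.11 with the same number of strongest peaks, and, in settings chosen after seeing the data, 1.85 at canonical transcript starts and 3.10 without shared windows. It went to -7.49 with a 3 kb window and -7.62 with windows at either gene end, and it ranged from -8.87 to 14 with 1 replicate left out. For CCD841 H4K12bu, 16.3 moved to 3.76 with the same number of strongest peaks and ranged from 13.9 to 22.2 with 1 replicate left out. For mouse H3K18bu, 12.1 went to -0.101 at q below 0.05, where 0 members and 22 other genes passed and no direction can be read, and it moved to 2.27 at a pileup of at least 2, to 6.81 with a 3 kb window and to 21.6 with a peak in either replicate, with a range of 8.64 to 25.1 by replicate. For mouse H4K12bu, 28.6 moved to 3.61 and 12.6 under those thresholds and ranged from 28.1 to 31.4 by replicate. The cause was not tested, except that fewer genes carry a peak at stricter thresholds. The mouse Kac differences, 24.4 and 22.4, kept their direction in the 10 alternatives run for each, with the lowest value, 14.1, at q below 0.05 for both. In the comparison of Kbu with Kac, 862 genes had an unadjusted exact p of 0.0286, the smallest possible, and 0 passed the adjustment there and in every alternative run. Since a call needs most genes to reach the smallest p, these zeros say nothing about stability. The smallest adjusted p ranged from 0.144 to 0.583 over the alternatives.

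Replicate numbers gave no sign of pairing, with correlations of same-numbered deviations between -0.0234 and 0.0239. Many mouse Kbu member peaks were single reads, so these correlations cannot exclude that libraries share a mouse. With the replicate block the number of called genes was 0, and 0 had an unadjusted p under 0.05, so the blocked test could call none. Depth limits the mouse Kbu values, where 43.3 to 89.3% of member peaks per library were single reads.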
